A study of Nannospalax ehrenbergi and Mus musculus with 25 samples.

Results

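Expression of 10 genes of the muscle-forming program was examined by RNA-seq in muscle and tumor tissue of the blind mole rat Spalax and of the mouse. The genes are the myogenic regulatory factors Myod1, Myf5, Myog and Myf6, their partner Mef2c, the progenitor factors Pax7 and Pax3, the satellite cell cadherin Cdh15, and the acetylcholine receptor subunits Chrng and Chrnd. All 10 were found by name in both tables, among 14769 gene symbols shared by the species, 27988 genes listed for Spalax and 47593 listed for mouse. They were chosen by name with their levels in these libraries already known. The levels and the tumor differences below are therefore a description, and no count of calls among the 10 is independent evidence.

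Skeletal muscle fibers are fused, multinucleate cells, and the satellite cells that repair them lie along the fiber surface. Pax7 marks resting satellite cells. On activation these express Myf5 and Myod1, proceed to Myog when they leave the cell cycle and fuse, and Myf6 is the regulator most abundant in grown fibers. Fetal and denervated muscle carries an acetylcholine receptor with the gamma subunit, which the epsilon subunit replaces in innervated adult fibers.

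The 25 libraries fall into 9 groups, and every group is labelled muscle. 3-methylcholanthrene (3MCA), a carcinogen that induces sarcomas, was injected once under the skin at the side of the neck. Spalax received 1 mg in 500 µl and mice received 200 µg in 200 µl. Spalax control comprised neck muscle of 4 untreated females. Spalax tolerant comprised the injected side of 3 males and 1 female without a tumor, 2 of them sampled at 18 and 2 at 30 months. Of the tumor-bearing Spalax, 2 females had a benign granuloma (animals 600 and 976, at 14 and 16 months), and 1 female and 1 male had a fibrosarcoma (2240 at 18 months and 2230 at 30 months). Each gave 1 library of the injected side with the tumor (IS) and 1 of the uninjected side (UIS). Mouse control comprised 3 untreated males, and IS and UIS libraries came from 3 males with a fibrosarcoma, sampled at 14, 12 and 11 weeks (animals 1019, 1023 and 512). Spalax were caught in the wild, with ages from about 2 to more than 10 years estimated for treated animals, whereas the C57BL/6 mice were 3 to 4 months old. Sex and treatment cannot be told apart between Spalax control and most of the tolerant animals, and a group of 2 animals limits what any comparison of granuloma or fibrosarcoma can show.

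The 4 myogenic regulatory factors are basic helix-loop-helix proteins encoded by related genes, and reads of such genes could be assigned to the wrong member. The stretch in which their mouse coding sequences are most alike is therefore printed, in the coding direction, from GENCODE vM21 on GRCm38. It spans 30 codons in each gene, capitals mark the 59 of 90 bases that all 4 genes share, and each stretch lies within 1 coding exon.
Myod1 (chr7:46377054-46377143, plus strand, codons 128 to 157): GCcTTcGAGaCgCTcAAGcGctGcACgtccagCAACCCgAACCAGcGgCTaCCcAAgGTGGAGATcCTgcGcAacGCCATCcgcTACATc
Myf5 (chr10:107485539-107485628, minus strand, codons 102 to 131): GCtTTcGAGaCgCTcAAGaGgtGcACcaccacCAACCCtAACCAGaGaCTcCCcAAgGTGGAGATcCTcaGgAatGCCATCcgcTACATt
Myog (chr1:134290353-134290442, plus strand, codons 100 to 129): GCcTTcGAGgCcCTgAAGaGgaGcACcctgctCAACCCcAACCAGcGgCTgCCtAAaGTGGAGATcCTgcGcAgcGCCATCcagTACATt
Myf6 (chr10:107494282-107494371, minus strand, codons 112 to 141): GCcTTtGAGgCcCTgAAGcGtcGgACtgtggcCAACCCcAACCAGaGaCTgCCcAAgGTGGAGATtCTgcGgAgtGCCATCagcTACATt
Even here Myod1 and Myf5, the closest pair, share 75 of 90 bases, and Myod1 and Myf6 share 67. Over 8 pairs of related genes among the 10, the longest run of identical transcript bases was 12 to 26. The fewest mismatches over a read of 101 bases were 10, between Pax7 and Pax3. The shared runs are thus shorter than a read in mouse. The Spalax sequences were not used here.

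On GRCm38 none of the 10 genes has exon bases under another annotated gene. Myod1 lies on chromosome 7 at 46376474 to 46379099, Myog on chromosome 1 at 134289989 to 134292548, and Pax7 on chromosome 4 at 139737062 to 139833528. Pax3 lies on chromosome 1 at 78101267 to 78197134, Mef2c on chromosome 13 at 83504034 to 83667080, and Cdh15 on chromosome 8 at 122847966 to 122867397. Myf5 (chromosome 10, 107482908 to 107486134) and Myf6 (107492853 to 107494737) are neighbours 6.72 kb apart. Chrnd (chromosome 1, 87190607 to 87200070) and Chrng (87204657 to 87212694) are neighbours 4.59 kb apart. No annotated gene lies within either gap.

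Libraries held 17025447 to 23386729 reads in Spalax and 22143060 to 31179183 in mouse. Values are normalised counts, that is, read counts divided by 1 size factor per library, and 1 read was worth between 0.517 and 1.44. Each species has its own scaling, so levels are not compared across species. Mature fibers were represented by 24 genes, of which the Spalax table holds 21. Their summed level in Spalax was 1576458 to 4947929 in the 12 muscle libraries and 1066 to 10829 in the 4 tumors. In mouse it was 1927986 to 7423578 in the 6 muscle libraries and 616 to 124468 in the 3 tumors. The muscle label of the IS libraries is thus not borne out by the markers of fibers. Acta1, the actin of skeletal muscle, read 14.5, 7691 and 29912 in mouse IS 1019, 1023 and 512, against at least 294083 in each mouse muscle library. In bulk tissue fewer cells of a type and less RNA per cell cannot be told apart.

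Myod1 and Myf5, the factors that commit cells to the muscle lineage, were low in every Spalax tumor. Myod1 read 1762, 826, 1660.2 and 991 normalised counts in the 4 Spalax controls and 766, 382, 436 and 606 in UIS 600, 976, 2240 and 2230. In the corresponding IS libraries it read 9.44, 0, 0 and 0.60. No tumor overlapped with any Spalax muscle library. The share of all genes for which tumors and muscle did not overlap was not counted, here or for the genes below. In mouse, Myod1 read 357, 461 and 247 in control, 238, 242 and 30.2 in UIS 1019, 1023 and 512, and 0.517, 6.53 and 2831 in the IS of the same animals. The tumors of mouse 1019 and 1023 thus lay below all muscle libraries, whereas the tumor of mouse 512 lay above all of them. Myf5 read 12.9 to 48.7 in Spalax control, 17.7 to 53.3 in UIS, 1.45 in granuloma IS 600 and 0 in the other 3 tumors. Mouse Myf5 read 49.7, 98.4 and 88.7 in control, 88.3, 73.2 and 40.3 in UIS, and 3.62, 1.19 and 889 in IS. The order of the 3 mouse tumors differed from that of Myod1 at the low end, but IS 512 was again the highest of the 9 libraries.

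Myog, which drives differentiation and fusion, showed the widest range of the 4 regulators in mouse. It read 185, 181 and 202 in mouse control, 254, 249 and 102 in UIS 1019, 1023 and 512, and 1.03, 16.0 and 10921 in IS. The value in IS 512 rests on 20748 reads. In Spalax, Myog read 1423, 958, 908 and 1294 in control, 1015, 285, 790.4 and 826 in UIS, and 19.6, 0, 0 and 0 in IS. Granuloma 600 was the only tumor with Myog reads in Spalax. Myf6, the regulator of grown fibers, behaved otherwise. Mouse Myf6 read 1718, 2438 and 1732 in control, 2336, 3959 and 3248 in UIS, and 0, 70.0 and 153 in IS, so that all 3 tumors, IS 512 included, lay below all muscle libraries. Spalax Myf6 read 1830.1 to 3304 in control, 1459 to 4447 in UIS, and 39.9, 7.86, 1.23 and 1.80 in IS 600, 976, 2240 and 2230.

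Mef2c, a MADS-box factor that acts with the regulators and is also made by endothelial and blood cells, stayed well above 0 in every tumor. It read 7817, 9138 and 8606 in mouse control, 12397, 9123 and 7801 in UIS, and 891, 597 and 5697 in IS 1019, 1023 and 512. Spalax Mef2c read 3874, 3061, 2790.3 and 5549 in control, 6283, 1013, 7560.0 and 7307 in UIS 600, 976, 2240 and 2230, and 675, 507, 576 and 214 in IS. All tumors of both species lay below all muscle libraries of their species, although UIS 976 came close to the highest Spalax tumor.

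**Figure D1:**
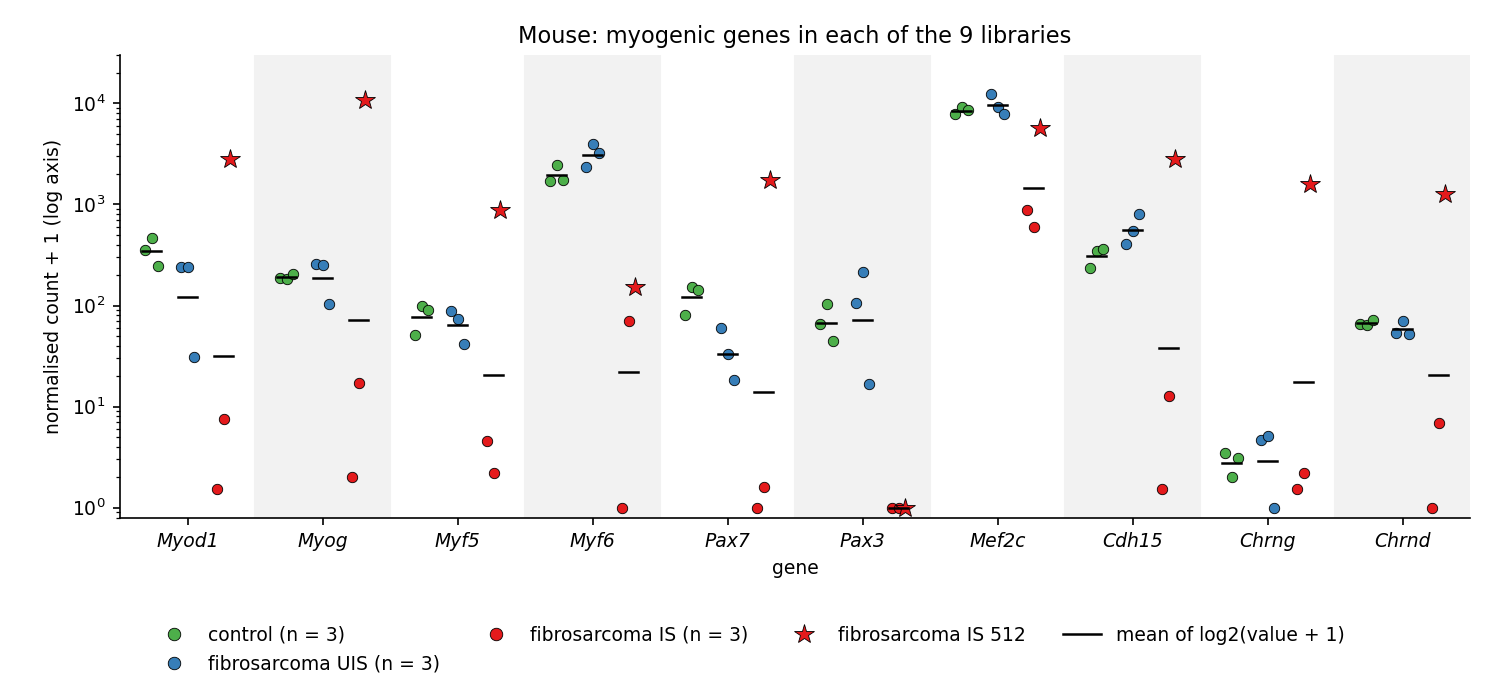
Normalised counts plus 1 (log axis) of the 10 genes in the 9 mouse libraries, with 3 points per group for control (green), fibrosarcoma UIS (blue) and fibrosarcoma IS (red), IS 512 drawn as a star, and a bar at the mean of log2(value + 1). The star lies above every other library for Myod1, Myog, Myf5, Pax7, Cdh15, Chrng and Chrnd, and at or below the muscle libraries for Myf6, Pax3 and Mef2c.

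The progenitor factors Pax7 and Pax3, closely related paired-box genes, diverged from each other. Pax7 read 79.0, 153 and 143 in mouse control, 59.3, 32.0 and 17.3 in UIS 1019, 1023 and 512, and 0, 0.593 and 1755 in IS. In IS 512 this rests on 3334 reads, whereas IS 1019 had none and IS 1023 had 1. Pax3 read 65.2, 104 and 43.3 in mouse control, 104, 213 and 15.8 in UIS, and 0 in all 3 IS libraries. Pax3 was thus without a read in the very tumor in which Pax7 was highest. With a floor of 3 reads per library, mean mouse Pax3 was at least 67.7-fold lower in IS than in UIS.

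In Spalax, Pax3 had reads in all 4 tumors, whereas Pax7 was nearly absent from them, as it was from mouse IS 1019 and 1023. Pax7 was scarce everywhere, at 21.0, 8.09, 9.98 and 4.97 in control, 13.3, 3.53, 19.4 and 12.8 in UIS, and 0, 0, 0.615 and 0 in IS 600, 976, 2240 and 2230. Pax3 read 72.9, 6.29, 47.4 and 2.98 in control, 84.4, 173, 36.4 and 93.8 in UIS, and 113, 26.0, 183 and 1.2 in IS. Pax3 therefore overlapped between tumor and muscle, and granuloma 600 and fibrosarcoma 2240 lay above their own uninjected side. The summed level of 10 genes of Schwann cells and melanocytes, other cells that can express Pax3, was 242 to 339 in the 4 Spalax tumors and 748 to 7372 in the 12 Spalax muscle libraries, and its part in the Pax3 values was not tested.

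Cdh15 encodes M-cadherin, which holds satellite cells to their fiber. It read 232, 346 and 365 in mouse control, 403, 552 and 805 in UIS, and 0.517, 11.9 and 2821 in IS 1019, 1023 and 512. In Spalax it read 145, 178, 131 and 150.2 in control, 104, 181, 268 and 246 in UIS, and 37.0, 7.25, 11.1 and 13.8 in IS. Each Spalax tumor held Cdh15 reads, while only fibrosarcoma 2240 held any of Pax7, and no Spalax tumor overlapped with muscle in Cdh15.

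Both receptor subunits were highest in IS 512 among the mouse libraries. Chrng, the fetal gamma subunit, read 2.45, 1.01 and 2.13 in mouse control, 3.63, 4.13 and 0 in UIS, and 0.517, 1.19 and 1584 in IS. Outside IS 512 these are counts of a few reads at most, while IS 512 held 3010 reads. Chrnd, the delta subunit of both fetal and adult receptors, read 65.2, 63.3 and 70.9 in mouse control, 52.0, 70.1 and 51.8 in UIS, and 0, 5.93 and 1266 in IS. In Spalax, Chrnd read 10.2 in granuloma IS 600 and 0 in the other 3 tumors, against 9.38 to 122 in the 12 muscle libraries, so that IS 600 overlapped with the lowest tolerant animal. Spalax Chrng read 0 to 6.06 in control and UIS and 1.21 to 11.6 in IS, and so was near the limit of detection on both sides.

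**Figure D2:**
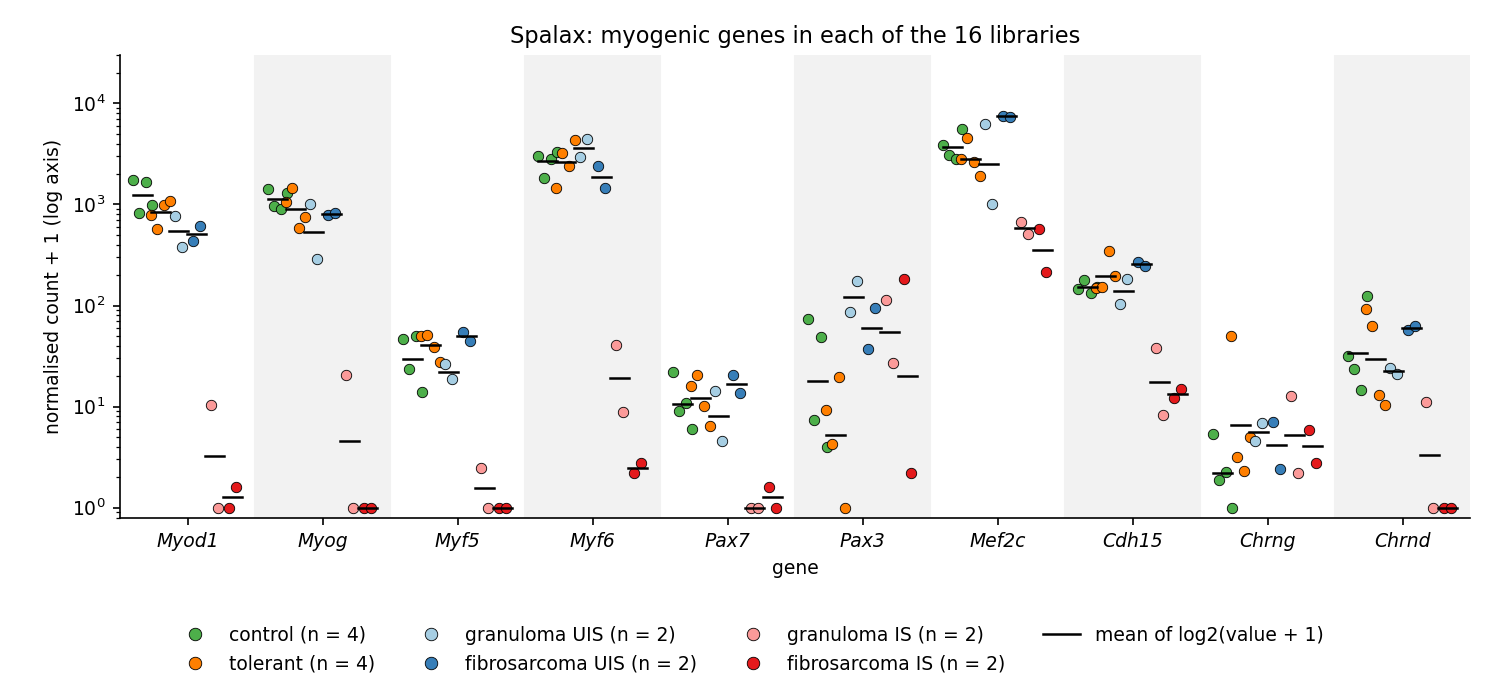
Normalised counts plus 1 (log axis) of the 10 genes in the 16 Spalax libraries by group (4 control, 4 tolerant, 4 UIS of tumor-bearing animals, 2 granuloma IS and 2 fibrosarcoma IS), 1 point per library. The tumors lie below all muscle libraries for Myod1, Myog, Myf5, Myf6, Pax7, Mef2c and Cdh15, and overlap with them for Pax3, Chrng and, through granuloma IS 600, Chrnd. The share of all genes separated in this way was not counted.

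For comparison between genes, mouse levels were divided by exon length, merged over all annotated transcripts of a gene. The order between genes depends on this choice. Merged exons held 15715 bases for Mef2c and 5860 for Pax7, against 6277 and 1725 in the transcript with the longest coding sequence. In the 6 mouse muscle libraries the median normalised count per kb was 1890.0 for Myf6 and 564 for Mef2c, followed by Myod1 (131), Myog (129) and Cdh15 (118), whose ranges overlapped, then Myf5 (38.8), Chrnd (19.5), Pax3 (13.6), Pax7 (11.8) and Chrng (0.549). In IS 512 the order per kb was Myog (7305), Myod1 (1521), Cdh15 (868), Myf5 (427), Chrnd (385), Chrng (381), Mef2c (363), Pax7 (299.5), Myf6 (121) and Pax3 (0). The most abundant of the 10 in muscle was thus among the least abundant in this tumor.

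Differences between IS and UIS were fitted by limma on log2(value + 1), and genes with an adjusted p of at most 0.05 over all genes tested are termed differentially expressed genes (DEGs). In granuloma, 8 of the 10 genes passed the filter on low values (Pax7 and Chrng did not), and 4 of the 8 were DEGs with lower expression in IS, where 12.6% of all 14735 genes tested were lower. These were Myod1 with a log2 difference of -7.39 (SE 1.26), Myog with -6.89 (SE 1.58), Myf5 with -3.82 (SE 0.92) and Myf6 with -7.57 (SE 0.81), at limma adjusted p of 0.00767 to 0.038. Myod1 and Myf5 were under 10 in both granuloma IS libraries and passed through UIS alone, so only a lower call was open to them. Pax3 (-1.14, SE 0.90), Mef2c (-2.11, SE 0.87), Cdh15 (-2.96, SE 0.95) and Chrnd (-2.75, SE 1.32) were not DEGs (limma adjusted p 0.0759 to 0.387). Mean granuloma Pax7, at 0 in both IS libraries, was at least 4.21-fold lower than in UIS against a floor of 3 reads per library. UIS 600 held only 11 Pax7 reads and UIS 976 only 3, so this bound rests mainly on UIS 600. The granuloma count is the least firm of the 3, since edgeR and a pseudocount of 0.1 each called 2 of the genes (Myod1 and Myf6), DESeq2 called 6 (adding Mef2c and Cdh15), and no gene was called once any of the 4 libraries was left out.

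In fibrosarcoma, 9 of the genes passed the filter and 8 were DEGs with lower expression in IS, beside 19% of all 14696 genes tested. Myod1, Myog, Myf5, Myf6, Pax7 and Chrnd were under 10 in both IS libraries. They passed the filter through UIS alone, so only a lower call was open to them. Pax7 rested on 16 reads in UIS 2240 and 9 in UIS 2230. Chrng did not pass, and Pax3 was the only one of the 9 that was not called (-1.56, SE 2.22, limma adjusted p 0.614). Its libraries 2240 and 2230 moved in opposite directions. The differences of the 8 DEGs ran from -3.72 (SE 0.59) for Pax7 to -9.66 (SE 0.46) for Myog, with Myod1 at -8.67 (SE 0.54), Myf6 at -9.54 (SE 0.49), Myf5 at -5.63 (SE 0.51), Chrnd at -5.89 (SE 0.50), Mef2c at -4.40 (SE 0.52) and Cdh15 at -4.27 (SE 0.43), and the limma adjusted p from 0.00138 to 0.0138. Against a floor of 3 reads per library, mean Myog was at least 444-fold lower in IS, Chrnd at least 32.1-fold and Myf5 at least 26.7-fold. No gene was called when UIS 2240 or UIS 2230 was left out. Without IS 2240 the fit rests on tumor 2230 alone, where Pax3 read 1.2 against 183 in IS 2240. Calls of fits without an IS library are therefore not counted.

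In mouse, 9 of the genes passed the filter and 3 were DEGs with lower expression in IS, Myf6 (-7.13, SE 1.79), Pax3 (-6.18, SE 0.94) and Mef2c (-2.73, SE 0.82), at limma adjusted p of 0.00427 to 0.0347, beside 22.3% of all 15220 genes tested. The other 6 had SEs of 2.18 to 2.94 and differences between -3.89 (Cdh15) and -1.23 (Pax7), with limma adjusted p of 0.249 to 0.74. A single library set these SEs. Without IS 512 all 9 were DEGs with lower expression in IS, beside 20.1% of all 15917 genes tested, with differences from -3.72 (SE 0.34) for Mef2c to -8.53 (SE 1.69) for Myf6. In that fit Myod1 differed by -5.18 (SE 1.2), Myog by -4.99 (SE 1.02), Pax7 by -4.71 (SE 0.73) and Cdh15 by -7.00 (SE 0.96). The call of Mef2c was lost under scaling by total reads, under edgeR and without any 1 library other than IS 512, and that of Myf6 without UIS 1023 or UIS 512, where Pax3 was the 1 gene called.

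**Figure D3:**
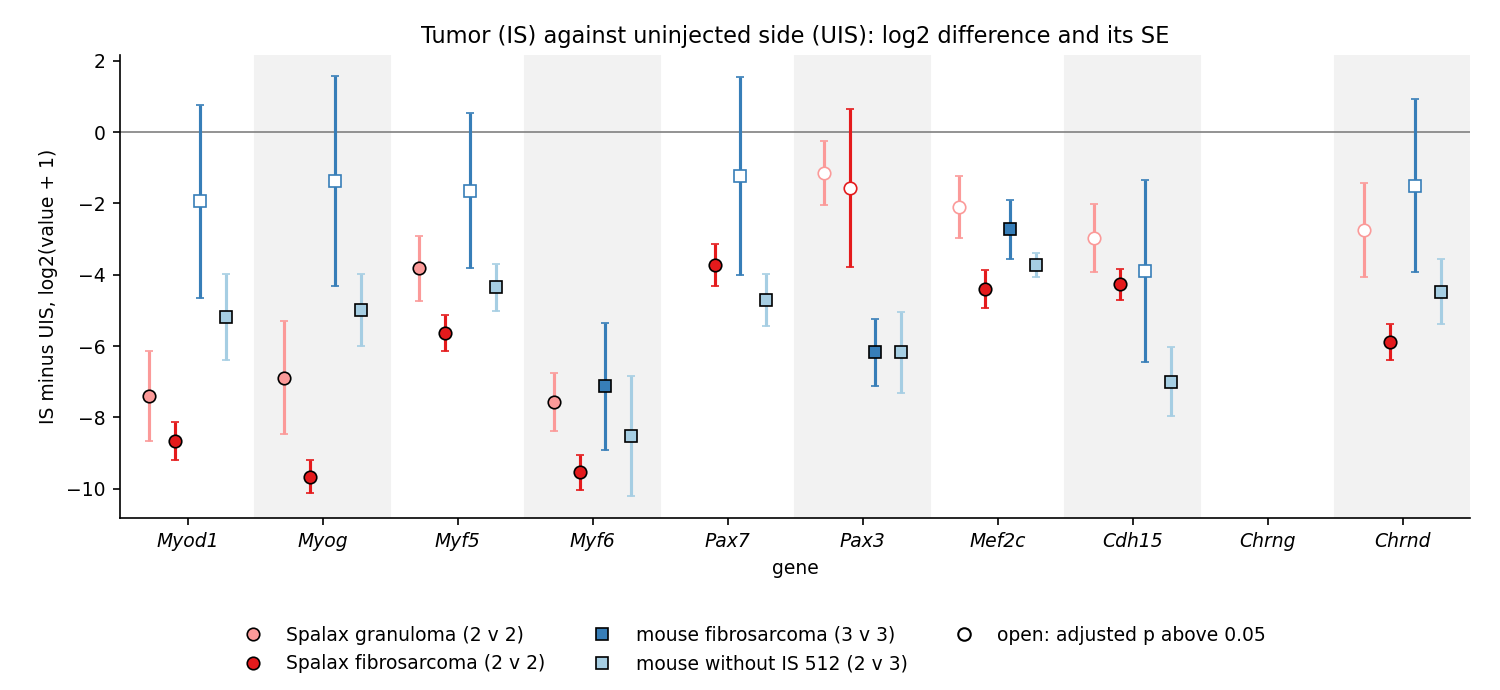
Difference between IS and UIS on the log2(value + 1) scale with its SE from limma, for granuloma (2 against 2 libraries), Spalax fibrosarcoma (2 against 2), mouse fibrosarcoma (3 against 3) and mouse without IS 512 (2 against 3), with open symbols where the adjusted p is above 0.05 and none where a gene did not pass the filter. The long mouse bars for Myod1, Myog, Myf5, Pax7, Cdh15 and Chrnd shorten without IS 512, and all its 9 symbols are then filled and lie between -3.72 and -8.53.

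The tumor of mouse 512 was then described on its own, a choice made after its values were seen. Its level was the highest of the 9 mouse libraries for 7 of the 10 genes and at least 2 times that of every other library for the same 7. Among the 17931 genes with a value of at least 10 in a library, it was the highest for 14.6% and at least 2 times the next library for 3.13%. With libraries scaled by their total reads it was the highest for 7 of the 10 genes as well, and for 22.5% of the 17931. Set against the highest of the other 8 libraries, its level was 384 times higher for Chrng, 43.0 times for Myog, 17.8 times for Chrnd, 11.5 times for Pax7, 9.03 times for Myf5, 6.14 times for Myod1 and 3.51 times for Cdh15. The Chrng ratio rests on a comparison value of only a few reads. The same ratio was 0.46 for Mef2c, 0.0386 for Myf6 and 0 for Pax3. These are values of 1 tumor without a replicate.

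Other myogenic genes in IS 512 were read from lists of related genes. Of 17 genes of cell fusion and embryonic fibers at 10 or more in a library, 13 were highest in IS 512 (14 with scaling by total reads) and 12 by at least 2 times. Tmem8c, which encodes the fusion protein myomaker, read 1578 in IS 512 and at most 9.22 in the other 8 libraries. Gm7325, which encodes its partner myomixer, read 402 and at most 8.64. Myh3, the embryonic myosin heavy chain, read 5921 and at most 548, and Myh8, the perinatal form, read 4047 and at most 115. Of 21 satellite cell genes, 10 were highest in IS 512 (14 with scaling by total reads) and 5 by at least 2 times, including Megf10 (3930.2 against at most 80.4) and Fgfr4 (1798 against at most 133). Calcr, a receptor of resting satellite cells, was not among them, at 8.95 in IS 512 and 46.2 in the highest other library.

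The receptor list was divided within itself. Of 16 receptor and denervation genes, 6 were highest in IS 512 (9 with scaling by total reads) and 4 by at least 2 times, among them Chrna1, the alpha subunit, at 4628 against at most 1264. Chrne, the adult epsilon subunit, read 6.84 in IS 512 and up to 336 in the other libraries. Of the 33 genes of the wider myogenic network, 8 were highest (16 with scaling by total reads) and 4 by at least 2 times, with Cdkn1c, a cell cycle inhibitor of differentiating muscle, at 9864 against at most 1144. Genes named in these lists for IS 512 were picked for their values.

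None of 24 mature fiber genes was highest in IS 512. Its summed level of mature fiber genes was 124468, the highest of the 3 tumors, but below the lowest mouse muscle library (1927986). The 5 proliferation genes summed to 11823 to 15579 in the 3 mouse IS libraries, to 41.2 to 103 in control and to 28.8 to 1318 in UIS. All 5 were highest in IS 512, also with scaling by total reads, though 0 by at least 2 times. Of all 17931 genes, 14.6% were highest there, and 22.5% with scaling by total reads. The tumor is labelled a fibrosarcoma, and the sum of 9 fibroblast genes was 144050 to 180453 in the 3 IS libraries. Of these 9 genes, 2 were highest in IS 512, Col1a1 and Fap, and only Fap by at least 2 times. Col1a1 read 39336 in IS 512, above 28179 and 15538 in IS 1019 and 1023, and Fap read 895 against 217 and 189. Pdgfra, in contrast, read 957 in IS 512 against 10245 and 15553, Lum read 198 against 3316 and 11282, and Dcn read 833 against 12647 and 15028. Fap, Pdgfra, Lum and Dcn were chosen after their values were seen. The part of fibers or of other cells in the levels of the 10 genes was not tested.

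**Figure D4:**
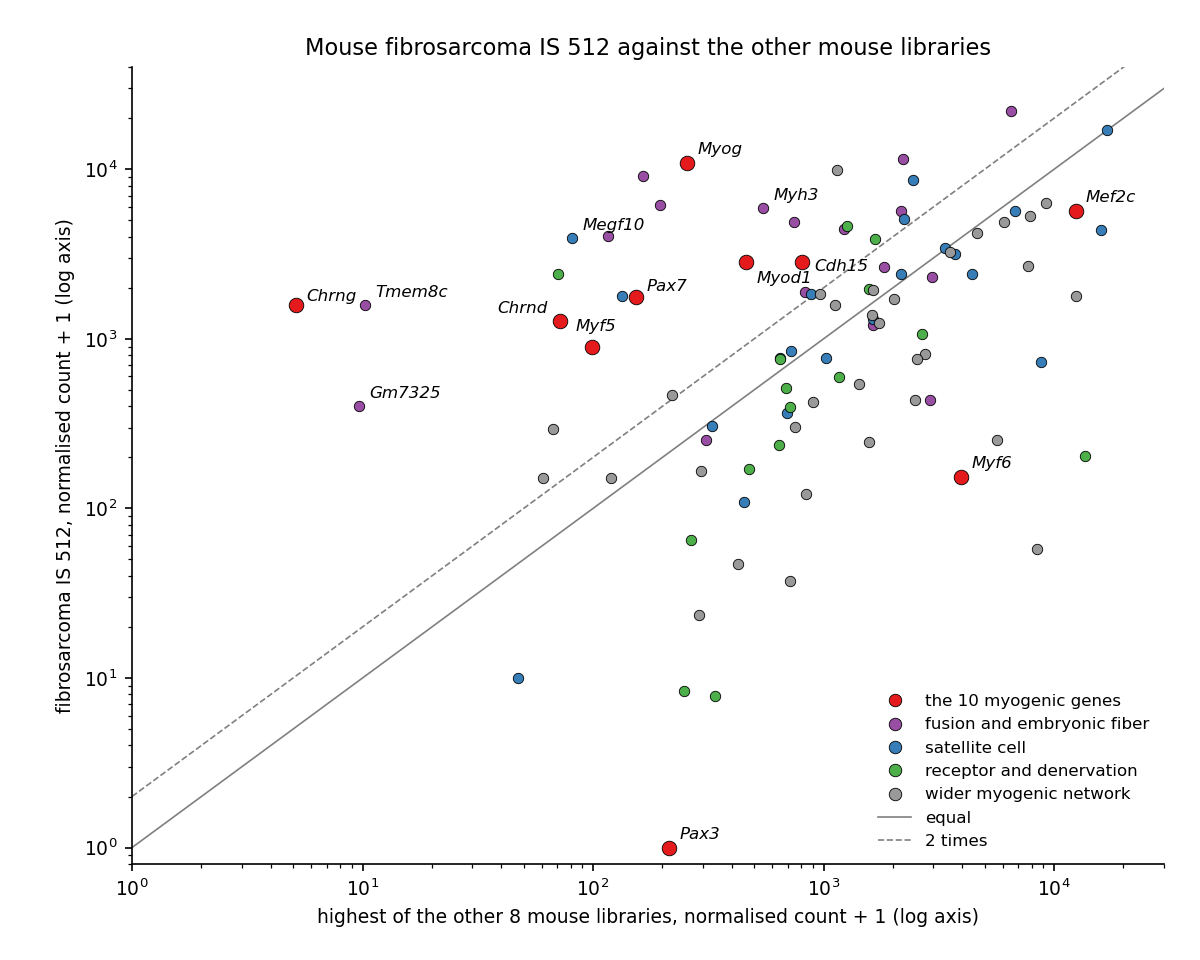
Normalised count plus 1 in mouse fibrosarcoma IS 512 (vertical, log axis) against the highest of the other 8 mouse libraries (horizontal, log axis) for the 10 genes (red) and 4 lists of related myogenic genes, 1 point per gene, with the line of equality and the line of 2 times. Of the 10 genes, 7 lie above both lines, and Mef2c, Myf6 and Pax3 lie below.

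The same lists were counted in the comparisons of IS with UIS, with medians over the genes that passed the filter. Of 24 mature fiber genes, 20 of 21 that passed were lower in granuloma (median log2 difference -10.59), 21 of 21 in fibrosarcoma (-12.95) and 22 of 23 in mouse (-8.53). The median of all genes tested was -0.01, 0.03 and 0.11. Of all genes tested, 11.7% were higher and 12.6% lower in granuloma, 17.4% higher and 19% lower in fibrosarcoma, and 22.8% higher and 22.3% lower in mouse, which is the background for the counts of every list. The satellite cell list had no shift of that size, with 3 higher and 2 lower of 20 in granuloma (median 0.53), 1 higher and 6 lower of 20 in fibrosarcoma (-0.19), and 5 higher and 0 lower of 20 in mouse (0.57). The share of its genes that were higher was near that of all genes in granuloma and in mouse. Ncam1, an adhesion molecule also made by activated satellite cells, rose by 3.73 (SE 0.54) in granuloma and by 3.66 (SE 0.64) in mouse. Many genes of this list are expressed by other cell types as well, such as Vcam1, a vascular adhesion molecule, which rose by 3.80 (SE 0.81) in mouse, and Cxcr4, a chemokine receptor, which rose by 3.78 (SE 0.64) in granuloma and 2.41 (SE 0.53) in fibrosarcoma.

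Within the wider myogenic network, 4 genes were higher and 13 lower of 31 in granuloma, 2 higher and 19 lower of 32 in fibrosarcoma, and 4 higher and 9 lower of 33 in mouse, where the share that was lower is near that of all genes. Twist1, a mesenchymal repressor of myogenesis, rose by 4.03 (SE 0.67) in granuloma and by 3.71 (SE 0.46) in fibrosarcoma, and Twist2 rose by 8.08 (SE 0.88) in granuloma. Smyd1, a muscle histone methyltransferase, fell in both Spalax tumors (-9.52, SE 1.03, and -11.29, SE 0.43). Mstn, the secreted inhibitor of muscle growth myostatin, fell by 8.81 (SE 1.49) in mouse. Of the fusion and embryonic fiber genes, 3 were higher and 1 lower of 15 in granuloma, 3 higher and 6 lower of 15 in fibrosarcoma, and 2 higher and 1 lower of 15 in mouse. Kirrel and Cdh2, both adhesion genes not restricted to muscle, were the 2 largest rises of this list in all 3 comparisons. Of the receptor and denervation genes, 2 were higher and 7 lower of 15 in granuloma, 1 higher and 11 lower of 14 in fibrosarcoma, and 2 higher and 6 lower of 16 in mouse. Rapsn, which anchors receptors at the synapse, fell by 7.59 (SE 0.68) in granuloma and by 7.51 (SE 0.47) in fibrosarcoma. All genes named here had limma adjusted p of at most 0.05 in the comparison given.

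Levels were also expressed relative to fibers, as log2(value + 1) of a gene minus the mean log2(value + 1) of the mature fiber list in the same library. On this scale Mef2c was -5.79 to -3.95 in the 12 Spalax muscle libraries and 1.43 to 5.05 in the 4 tumors. In mouse it was -3.43 to -2.13 in muscle and -0.08 to 6.23 in tumors. Mef2c was thus reduced less than the fiber genes in every tumor. This was not particular to Mef2c. In Spalax, Cdh15 stood at -10.28 to -7.88 in muscle and -2.72 to -0.36 in tumors, and Myf6 at -6.7 to -3.27 and -2.97 to -1.14. Myog in IS 512 stood at 2.82, against -9.67 to -7.53 in mouse muscle. Where a gene is without reads in a tumor, this scale shows only the loss of the fiber genes.

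Uninjected muscle of tumor-bearing animals was compared with untreated muscle to ask whether it differed away from the tumor. These comparisons use the UIS libraries already set against IS. In Spalax, 9 of the genes passed the filter and limma called 0 of them, beside 0% of 13909 genes tested. At an unadjusted p under 0.05, 2315 genes were counted, edgeR called 0 and DESeq2 called 516. Myod1 had the smallest p of the 9, at 1309.9 ± 470 in control (SD, n = 4) against 547 ± 174 normalised counts in UIS (SD, n = 4). All 4 UIS libraries lay below all 4 controls, though the share of all genes separated in this way was not counted. The log2 difference of Myod1 was -1.24 (SE 0.31, limma adjusted p 0.182). DESeq2 called it (adjusted p 0.0167), and over all alternatives the adjusted p ran from 0.0167 to 0.362. The summed level of 7 endothelial genes also did not overlap, at 11579 to 15448 in control and 9525 to 10999 in UIS, and its part in the Myod1 difference was not tested. Pax3 was higher in UIS by 2.25 (SE 0.92, limma adjusted p 0.273) with overlapping libraries. Granuloma UIS 976 held the lowest UIS values of Myod1, Myog, Myf5, Pax7, Mef2c and Chrnd and the highest of Pax3 and Myf6, and without it the Myod1 difference was -1.08 and still not called by limma.

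In mouse, limma called 0 of 9 genes between UIS and control, beside 0% of 14792 tested, with 1621 genes at an unadjusted p under 0.05, 0 called by edgeR and 342 by DESeq2. Pax7 read 125 ± 39.9 in control (SD, n = 3) and 36.2 ± 21.3 in UIS (SD, n = 3), without overlap, a log2 difference of -1.87 (SE 0.53, limma adjusted p 0.41, and 0.0518 to 0.861 over the alternatives). Myod1 (-1.50, SE 0.79, limma adjusted p 0.487) was lower and Cdh15 (0.87, SE 0.34, limma adjusted p 0.452) higher in UIS, also without overlap. The share of all genes without overlap in this comparison was not counted. UIS 512 was the lowest of the 6 muscle libraries for Myod1, Myog, Myf5, Pax7 and Pax3 and the highest for Cdh15. It was also the lowest for Chrng, with 0 reads, and narrowly for Mef2c (7801 against at least 7817) and Chrnd (51.8 against at least 52.0). The summed brown fat genes moved with this comparison, at 130406 to 182935 in control and 8927 to 94584 in UIS, where UIS 512 was the lowest and had no reads of Ucp1, a marker gene picked after its values were seen. The summed smooth muscle genes were 64088 to 86694 in control and 88777 to 116062 in UIS. That list shares Des with the mature fiber list, and its 5 genes had a median log2 difference of -0.4, opposite to the sum. The sum is therefore not read as a shift of smooth muscle. The part of the brown fat and smooth muscle lists in the differences was not tested. In both species controls carried dual and tumor-bearing animals single sequencing indexes, so index and group cannot be told apart.

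Muscle of tolerant Spalax was compared with control to ask whether injected muscle without a tumor differed, using the same 4 controls as the UIS comparison. Limma called 0 of 7 genes (Pax7, Pax3 and Chrng did not pass the filter), beside 0% of 14020 tested, with 733 genes at an unadjusted p under 0.05, 0 called by edgeR and 60 by DESeq2. Myod1 read 790, 571, 979.8 and 1089.6 in tolerant 2251, 2261, 2218 and 2375, a difference of -0.58 (SE 0.30, limma adjusted p 0.923) with overlap. Myog read 1047, 1458, 582 and 744 (-0.32, SE 0.30, limma adjusted p 0.923). The other 5 differed by -0.37 to 0.48, with limma adjusted p of 0.923 to 0.998. Pax3 read 8.26, 3.29, 18.5 and 0, within or below the range of control. The endothelial sum was 8533 to 11344 in tolerant animals, below all controls here too, and its part in these values was not tested. Chrng read 49.6 in tolerant 2251 and 1.32 to 4.02 in the other 3. That animal had the highest summed macrophage genes of the 4 (22779, lowest 1169) and fibroblast genes (203147, lowest 8377), and their part in the Chrng value was not tested.

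Whether the tumor differences themselves differed was tested by interaction terms. Between fibrosarcoma and granuloma limma called 0 of 9 genes, beside 0% of 15584 tested, with 766 genes at an unadjusted p under 0.05, 0 called by edgeR and 88 by DESeq2. The smallest unadjusted p was that of Mef2c (-2.29, SE 1.17), and limma adjusted p was 0.946 to 0.989. In the direct comparison of the 4 Spalax tumors, Pax3, Mef2c and Cdh15 passed the filter and 0 of 3 were called, beside 0% of 14562 tested, with 591 genes at an unadjusted p under 0.05, 0 called by edgeR and 153 by DESeq2. Between Spalax fibrosarcoma and mouse, 0 of 9 genes were called by limma, beside 3.95% of 11085 tested. By edgeR 0 of the 9 were called, and none of the 9 had an unadjusted limma p under 0.05. Pax3 differed by 4.61 (SE 2.44, limma adjusted p 0.314) toward a smaller loss in Spalax. DESeq2 called it (adjusted p 0.000903, with 0.000903 to 0.703 over the alternatives), but DESeq2 also called 1711 of the 11085 genes tested. The Spalax IS values of Pax3 were 183 in 2240 and 1.2 in 2230. Myog differed by -8.29 (SE 4.01, limma adjusted p 0.271). A p above the threshold does not show that the species responded alike, as the SEs of Myod1, Myog, Myf5, Pax7, Cdh15 and Chrnd were 3.01 to 4.01.

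Finally, genes whose levels followed a regulator most closely across the 12 Spalax muscle libraries were listed among 11932 genes. The points share species, table and scaling, and the values are a description. For Myod1 they were Abhd16a (Pearson r 0.92, and 0.30 over the 6 mouse muscle libraries), Dnph1 (0.90 and -0.03) and Sac3d1 (0.88 and 0.89). For Myog they were Notch3 (0.94 and 0.22), Rasl12 (0.93 and 0.59) and Znf483 (0.93, not computed in mouse). For Pax7 they were Tesk2 (0.90 and -0.17), Ap1ar (0.88 and -0.82) and Gpr149 (0.88 and -0.14). Of these 9 genes, Sac3d1 and Rasl12 had an r above 0.5 in mouse as well. Among the 10 genes, Myf5 and Pax7 followed each other with r 0.82 over the Spalax and 0.70 over the mouse muscle libraries.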

How the data were processed

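RNA-seq was done on 25 libraries by the authors, who trimmed single-end reads of 101 cycles, aligned them with TopHat to a genome of each species and counted reads per gene with HTSeq. The submitters' processing notes name TopHat 1.4.1, HTSeq, DESeq and GRCm38, and the gene annotation used for counting is not given in the sources used here. What was deposited is a signal: the authors scaled the read counts of each library by a size factor of its own, separately for the 2 species. In each library 100% of values were whole multiples of 1 read (tolerance 0.01 read), so reads were recovered. In the Spalax table a comma stood for the letter t in 2387 names, and values were read from the line end.

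Limma 3.58.1 in R 4.3.3 (lmFit, eBayes with trend) was fitted on log2(value + 1), without covariates, to genes that reached a value of 10 in n or more libraries, n being the size of the smaller group. Fold changes on this scale understate the change of low genes. P-values were adjusted by Benjamini-Hochberg over all genes tested, and genes at 0.05 or less were called. edgeR 4.0.16 and DESeq2 1.42.0 on the recovered reads, a pseudocount of 0.1, no filter, scaling by total reads, 1 model over all groups, the animal as a block and leaving out each library were alternatives. IS and UIS of an animal carry its number in the labels, which is the source of the pairing. For granuloma UIS 976 the run name in the description carries another number, and the title was followed. After the group means were subtracted, the libraries of an animal correlated at 0.01 in granuloma, 0 in fibrosarcoma, and 0.13, 0.05 and 0.18 in mouse. No 2 replicates were copies (chi-square per degree of freedom at least 45.0 in 25 pairs). A value of 10 rests on 6.95 to 19.3 reads, and floors cover counting error only. The fits were also run on simulated counts with the same dispersion for every gene. That check does not cover the spread between the animals of this study. The 10 genes and all lists were chosen with earlier results of these data known. All 10 genes are named. From each list the 2 largest rises and 2 largest falls among called genes could be named, with Acta1, Ckm, Col1a1 and Cd68 as examples of markers, and genes outside this rule are stated as such. Plots were made in Python 3.11.15 with matplotlib 3.10.9.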

Additional observations from a re-analysis of the deposited data

Results flagged for a closer look

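In 30 sets of 4 libraries (10 genes in Spalax control, tolerant and tumor-bearing UIS), 2 values stood apart by the size of their gap to the nearest library relative to the range of the group. For normally distributed values, chance gives about 1 in 20 such groups. The rate for low, skewed counts such as these was not determined. Chrng read 49.55 normalised counts in tolerant 2251, where the other 3 tolerant libraries read 1.322 to 4.021, and the gap was 0.944 of the range. In the same animal Tmem8c, the fusion gene of myomaker, read 65.3 against 1.32 to 9.85 in the other 3, a gene looked up after the Chrng value was seen. Chrnd read 122.4 in Spalax control 6038, where the other 3 controls read 13.72 to 30.92, and the gap was 0.842 of the range. In that control Chrng read 0.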

How the results depend on the processing

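Counts of DEGs among the 10 genes moved as follows. In granuloma (4), a pseudocount of 0.1 gave 2, edgeR gave 2, and leaving out 1 library gave 0 to 0. In fibrosarcoma (8) leaving out either UIS library gave 0, and fits without an IS library, which rest on 1 tumor, are not counted. In mouse (3) leaving out 1 library gave 1 to 9. Between Spalax UIS and control (0), DESeq2 gave 1, Myod1. Over all genes it called 516 of 13909 there and 1711 of 11085 in the species interaction. Between Spalax fibrosarcoma and mouse (0), DESeq2 gave 1, Pax3, and leaving out 1 library gave 0 to 1, where Myf6 was called without mouse IS 1019. Where 1 library of a side remained, it was assumed to vary like the other side, and without either UIS library of granuloma or fibrosarcoma no gene of the whole table was called. No value changed its direction past a threshold in the alternatives run. The fit with the animal as a replicate block gave the same counts, 4 in granuloma, 8 in fibrosarcoma, 3 in mouse and 0 in both interactions, while it lowered the calls among all genes of the species interaction from 438 to 38. Over all genes, granuloma calls rose from 3581 to 5383 with DESeq2 and to 6314 with 1 model over all groups. Scaling by total reads moved the median of all genes in granuloma to 0.738, in fibrosarcoma to 0.859 and in mouse to 1.208. Its splits of higher and lower calls were 3409 and 1122, 5285 and 1654, and 7879 and 1624, against 1718 and 1863, 2550 and 2789, and 3469 and 3401. Depth limits Pax7 and Chrng in Spalax, which rest on few reads.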
